A study of Mus musculus with 4 samples.

Results

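The 28 genes described here encode the cholesterol synthesis enzymes, the SREBP2 regulators that set their transcription, and proteins that move or store cholesterol, taken by symbol from a count table of 54532 genes. All 28 symbols were found once each. The table holds 4 bulk RNA-seq libraries of sorted thymic epithelial cells from C57BL/6 mice, 1 library per group: medullary cells (mTEC, Ly51− UEA1+) of SCD1 knockouts, mTEC of littermate controls labelled WT, cortical cells (cTEC, Ly51+ UEA1−) of SCD1 knockouts, and cTEC of littermate controls. SCD1 is a stearoyl-CoA desaturase, which converts stearic to oleic acid. The labels used here do not state which part of Scd1 was deleted, how many mice gave each library, or their age and sex, and they name no Cre or other allele.

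Cholesterol is built from acetyl-CoA through mevalonate, isoprenoid diphosphates, squalene and lanosterol. When sterols are scarce in the endoplasmic reticulum, SCAP escorts the transcription factor SREBP2 to the Golgi, where it is cut and released to switch on most of these enzyme genes. Sterols stop this by binding SCAP to the INSIG proteins. In the thymus, epithelial cells form the niche in which T cells develop, and mTEC also express antigens of other tissues under the control of Aire.

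There were no replicates, so no p-value was computed, and every interval is a 95% interval for counting error alone. Each difference is between these libraries and not between conditions, and batch and group cannot be told apart. Library totals ran from 15740383 to 18151725 reads. Levels are in CPM (reads scaled by library size) or, where genes are compared with each other, in TPM (which also divides by gene length). Scd1 itself had 278 reads in knockout mTEC against 1310 in control mTEC, and 73 reads in knockout cTEC against 325 in control cTEC, 4.85-fold lower in mTEC and 5.08-fold lower in cTEC of the knockout. The 9 cTEC markers were each at least 2-fold lower in mTEC than in cTEC in both genotypes, and 8 of 9 mTEC markers at least 2-fold higher. In these bulk samples, fewer cells of a type and less RNA per cell cannot be told apart.

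The promoters of the genes on which the results turn are shown first. Insig1, Hmgcs1 and Cyp51 were the members at least 1.2-fold higher in knockout mTEC, and Mvk, Mvd and Sc5d had more than 2-fold differences between mTEC and cTEC. SREBP2 acts at sterol regulatory elements together with NF-Y and Sp1, which bind CCAAT and GGGCGG boxes. Each line holds the 250 bases before the RefSeq start on GRCm38.p6, read 5′ to 3′ on the gene's strand, with NF-Y letters (CCAAT, or ATTGG on the other strand) and the element core (TCACNCCAC) in capitals. The windows lie at chr5:28071162-28071411 (plus strand) for Insig1, chr13:119690101-119690350 (plus) for Hmgcs1, chr5:4104698-4104947 (minus) for Cyp51, chr5:114444019-114444268 (plus) for Mvk, chr8:122443423-122443672 (minus) for Mvd and chr9:42264301-42264550 (minus) for Sc5d.
Insig1: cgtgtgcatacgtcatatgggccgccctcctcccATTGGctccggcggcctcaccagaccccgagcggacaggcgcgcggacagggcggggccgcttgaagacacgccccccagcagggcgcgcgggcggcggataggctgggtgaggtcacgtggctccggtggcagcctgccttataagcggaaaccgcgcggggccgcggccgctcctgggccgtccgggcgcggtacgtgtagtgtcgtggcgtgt
Hmgcs1: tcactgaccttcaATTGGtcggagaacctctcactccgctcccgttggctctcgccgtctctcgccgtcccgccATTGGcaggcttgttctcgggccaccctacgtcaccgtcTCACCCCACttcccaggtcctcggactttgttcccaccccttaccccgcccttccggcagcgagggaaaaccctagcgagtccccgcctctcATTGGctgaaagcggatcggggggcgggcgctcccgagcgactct
Cyp51: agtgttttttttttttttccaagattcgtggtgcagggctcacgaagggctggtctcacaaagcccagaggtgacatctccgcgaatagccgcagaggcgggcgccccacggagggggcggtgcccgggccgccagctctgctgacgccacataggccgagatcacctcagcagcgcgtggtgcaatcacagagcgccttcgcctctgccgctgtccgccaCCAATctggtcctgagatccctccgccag
Mvk: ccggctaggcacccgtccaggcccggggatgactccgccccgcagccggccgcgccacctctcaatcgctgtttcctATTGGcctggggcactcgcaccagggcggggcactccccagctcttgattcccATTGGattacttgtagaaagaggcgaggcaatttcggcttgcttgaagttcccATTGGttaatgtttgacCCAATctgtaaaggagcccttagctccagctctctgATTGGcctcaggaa
Mvd: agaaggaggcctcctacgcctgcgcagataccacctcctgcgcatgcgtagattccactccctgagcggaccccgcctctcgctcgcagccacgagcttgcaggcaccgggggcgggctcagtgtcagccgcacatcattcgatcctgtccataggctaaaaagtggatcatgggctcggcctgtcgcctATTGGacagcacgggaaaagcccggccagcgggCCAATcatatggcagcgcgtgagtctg
Sc5d: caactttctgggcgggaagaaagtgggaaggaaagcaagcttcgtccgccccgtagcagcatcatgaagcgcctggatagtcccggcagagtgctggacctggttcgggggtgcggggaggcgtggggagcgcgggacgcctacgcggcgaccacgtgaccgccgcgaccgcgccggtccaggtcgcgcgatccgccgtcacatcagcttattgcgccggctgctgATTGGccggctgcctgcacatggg

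Most member promoters held NF-Y letters. The set of RefSeq windows used here, from 250 bases before to 50 after the start, covered 23 of the 28 members with 29 windows. It held none for Fdft1, Fdps, Npc1, Sqle and Stard4, which says nothing of their annotation in RefSeq itself. CCAAT stood on either strand in the windows of 21 of these 23 genes (91.3%), against 41.1% of the 27025 genes with a window and 42.7% of those tested in both genotype comparisons. Scap and Acat2 were without it. Of the 45 matches, 28 began within 100 bases before the start. The share over all windows was not computed for this position, so nothing is read from it. GGGCGG on either strand was held by 21 of 23 genes (91.3%), against 38.2% of all genes and 68% of those tested. The 9-letter core TCACNCCAC, searched on both strands, was in 1 member window, that of Hmgcs1, where it began 137 bases before the start, between NF-Y letters beginning 176 and 45 bases before it. The core stood in 3.45% of member windows and in 1.24% of all windows, and its absence says only that these letters are not in a window. No searched motif contains another.

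**Figure D1:**
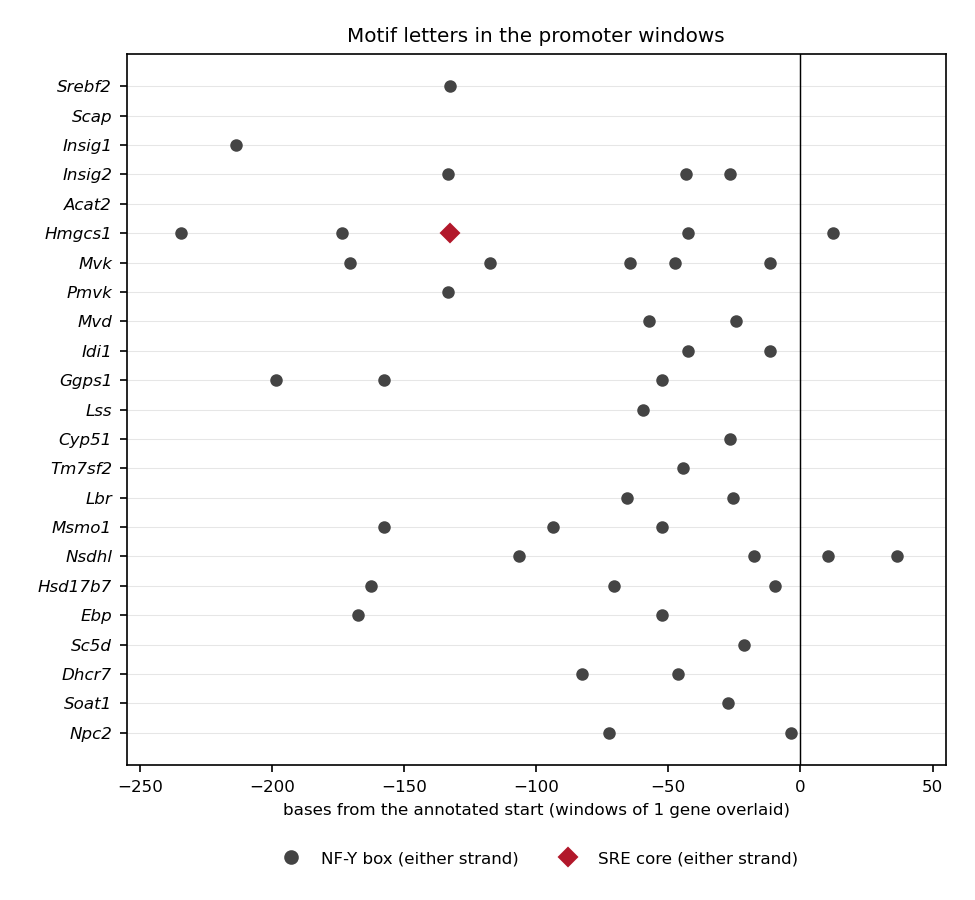
Position of motif letters in the promoter windows of 23 members, in bases from the annotated start (0, vertical line). Dots are NF-Y letters on either strand and the diamond is the element core of Hmgcs1, and 28 of the 45 NF-Y matches begin within 100 bases before the start. Positions in the windows of other genes were not counted.

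Levels of the members differed widely on the TPM scale. Npc2, which hands cholesterol to NPC1 inside the lysosome, was the most abundant, at 389 TPM in knockout mTEC, 375 in control mTEC, 328 in knockout cTEC and 322 in control cTEC. Srebf2, which encodes SREBP2, came second, with 102, 95.8, 148 and 142 TPM in the same order of libraries. Sc5d, the lathosterol oxidase, followed with a mean of 66.4 TPM over the 4 libraries, and then Hmgcs1 (61.4 TPM), which makes HMG-CoA. The lowest means were those of Dhcr7 (5.37 TPM), which carries out the last reduction to cholesterol, and Fdps (0.731 TPM). Just above them, Tm7sf2, Lss and Stard4 had means of 7.52, 7.50 and 7.50 TPM and cannot be put in an order. The order of genes by TPM holds only for the deposited gene lengths. For several members, among them Tm7sf2, Lss, Msmo1, Dhcr7, Fdps, Npc1, Sqle and Npc2, the deposited length was well above that of the longest transcript. This lowers their TPM. For Sc5d the deposited length was close to that of the longest transcript. The order with transcript lengths was not tested. Summed over all 28 genes, the members held 2003 CPM in knockout mTEC against 1871 in control mTEC, and 2175 CPM in knockout cTEC against 2062 in control cTEC.

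**Figure D2:**
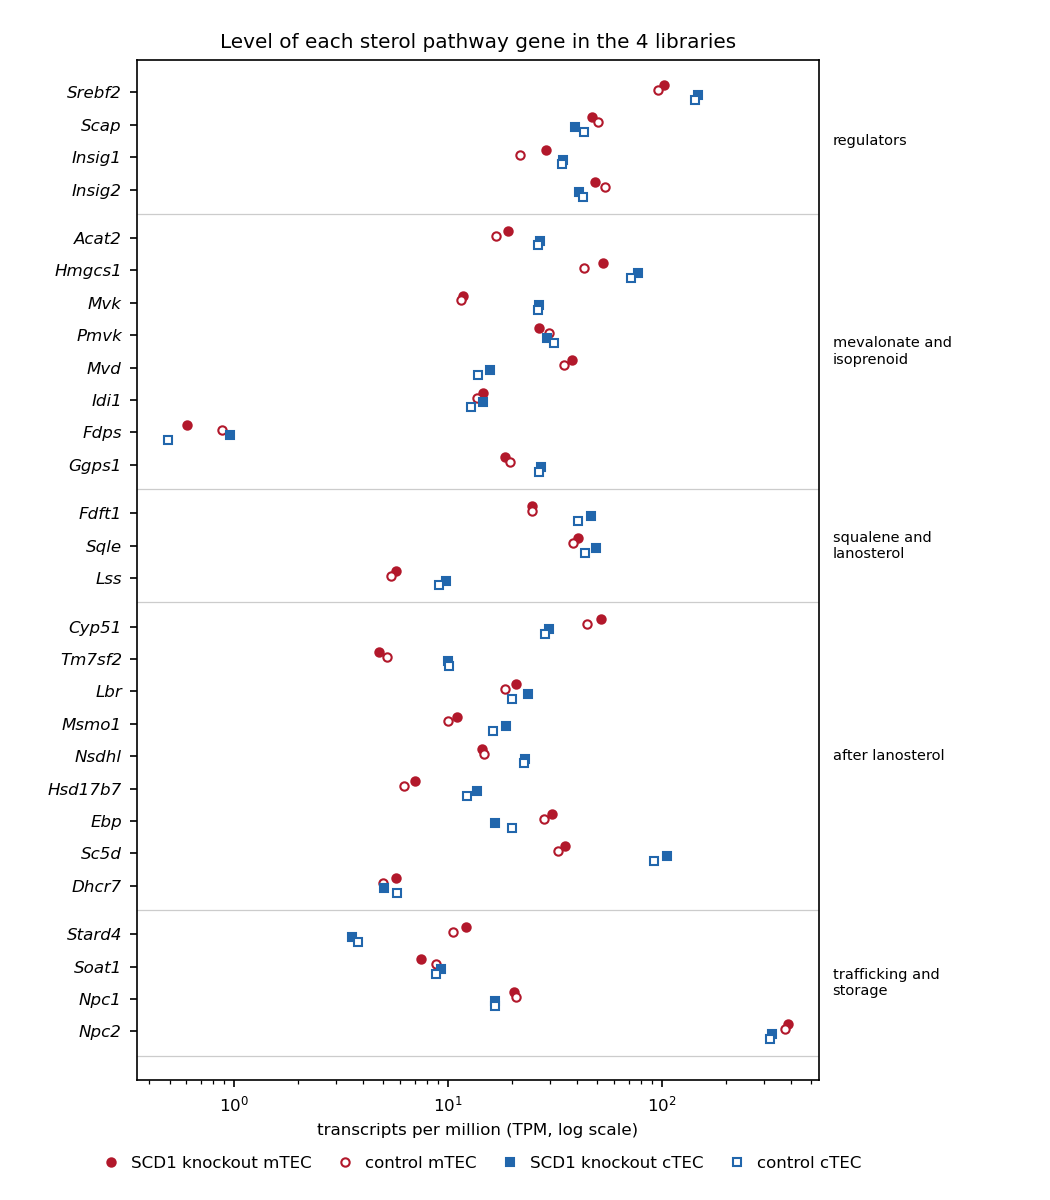
Level of each member in TPM (log scale) in SCD1 knockout mTEC, control mTEC, SCD1 knockout cTEC and control cTEC, 1 library each, with genes ordered by role. Npc2 sits at 322 to 389 TPM and Fdps below 1 TPM in all 4 libraries, and Sc5d, Mvk, Mvd and Stard4 show the mTEC and cTEC symbols well apart.

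Fdps, the farnesyl diphosphate synthase gene, could not be measured. It had 16 reads in knockout mTEC, 22 in control mTEC, 25 in knockout cTEC and 11 in control cTEC, under the minimum of 50 reads over a pair in every comparison. Of the 50-base windows of its longest transcript, 51.1% also occur in other genes, and those 7 genes held 53, 47, 65 and 44 reads in the same libraries. The predicted gene Gm3571 alone shares 40.1% of the windows and had 47, 38, 61 and 38 reads, more than Fdps in each library. The labels do not state how reads that map to several places were counted, so the level of Fdps is uncertain. Fdps also overlaps Gm43738 on the same strand, a protein-coding gene with 0 reads in each library. The part of that overlap in the low counts of Fdps was not tested. Acat2 (45.9% of windows shared, with Acat3 and Tcp1) and Idi1 (21.3%) were the other members above 20%. For Idi1 the sharing genes held 1 to 20 reads per library, and for Acat2, Acat3 held 6 to 27 and Tcp1, with 13.2% of the windows, 1810 to 3017.

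In mTEC, the comparison of knockout with control asked whether sterol pathway transcripts differed without SCD1. They were slightly higher as a group: 21 of the 27 measured members had a log2 ratio above 0, against 51.9% of the 16466 genes tested. The median log2 ratio of the members was 0.13, against 0.0064 over all genes tested. The counting interval lay above 0 for 9 of 27 members, against 11.6% of all genes. Members had more reads than the average gene (median 962 over the pair, against 700.5), which narrows their intervals. Those at least 1.2-fold higher (a log2 ratio of 0.26) with an interval excluding equality were 3 of 27, against 5.9% of all genes. None was 1.2-fold lower, against 4.29%, and none differed 2-fold in either direction, against 0.935%.

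Among the regulators, Insig1 had the highest ratio of any member in mTEC. It encodes the sterol-responsive retention protein of SCAP and is itself an SREBP2 target. Insig1 (ENSMUSG00000045294, mm10 chromosome 5, 28071363 to 28078662, plus strand) had 560 reads in knockout mTEC and 402 in control mTEC, or 31.9 CPM (29.3 to 34.6) against 23.6 CPM (21.3 to 26.0), and the intervals did not overlap. The log2 ratio was 0.43 (0.25 to 0.62), 1.35-fold higher. Its partner gene Insig2, which is not induced by SREBP2, had 1075 reads in knockout mTEC and 1123 in control mTEC, a log2 ratio of −0.11 (−0.23 to 0.01). Srebf2 had 4656 and 4109 reads in the same libraries, a log2 ratio of 0.14 (0.08 to 0.20), and Scap had 2221 and 2247 (−0.06, −0.15 to 0.02).

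In the mevalonate and isoprenoid steps, Hmgcs1 (ENSMUSG00000093930, mm10 chromosome 13, 119690379 to 119708260, plus strand) was 1.26-fold higher. It had 1535 reads in knockout mTEC and 1183 in control mTEC, 87.4 CPM (83.0 to 91.8) against 69.4 CPM (65.5 to 73.5), with a log2 ratio of 0.33 (0.22 to 0.44). The intervals of the other measured genes of these steps included equality. Acat2, which joins acetyl-CoA units, stood at 0.22 (−0.02 to 0.47), the decarboxylase gene Mvd at 0.15 (−0.05 to 0.35) and the isomerase gene Idi1 at 0.13 (−0.10 to 0.37). The kinase genes Mvk and Pmvk stood at 0.08 (−0.22 to 0.37) and −0.12 (−0.35 to 0.12), and Ggps1, which makes geranylgeranyl diphosphate, at −0.04 (−0.21 to 0.13).

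From squalene to cholesterol, 11 of 12 genes had a log2 ratio above 0 in mTEC, and Cyp51 passed the 1.2-fold rule. Cyp51 (ENSMUSG00000001467, mm10 chromosome 5, 4081145 to 4104746, minus strand), the lanosterol demethylase, had 1458 reads in knockout mTEC and 1178 in control mTEC, 83.0 CPM (78.8 to 87.4) against 69.1 CPM (65.2 to 73.2). Its log2 ratio of 0.26 (0.15 to 0.38) lay at the threshold, and with library totals in place of TMM scaling it was 0.257, below the rule. Sqle, the squalene epoxidase, had 1427 and 1274 reads (0.12, 0.01 to 0.23). Lbr, a nuclear envelope protein that also reduces sterols, had 625 and 526 reads (0.20, 0.04 to 0.37), and Sc5d 1081 and 954 (0.14, 0.01 to 0.26). The other genes had intervals that included equality: Dhcr7 at 0.25, Hsd17b7 at 0.21, Msmo1 at 0.18, Ebp at 0.15, Lss at 0.11, Fdft1 at 0.05, Nsdhl at 0.02 and Tm7sf2 at −0.09.

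The trafficking and storage genes did not share a direction in mTEC. Stard4, a carrier of cholesterol between membranes, had 428 reads in knockout mTEC and 352 in control mTEC, a log2 ratio of 0.24 (0.03 to 0.45). Soat1, which esterifies cholesterol for storage, had 462 and 517 reads and was the only member with an interval below 0 (−0.21, −0.39 to −0.02). Npc2 had 13362 and 12168 reads (0.09, 0.06 to 0.13), and Npc1, which exports cholesterol from the lysosome, 1379 and 1337 (0.00064, −0.11 to 0.11).

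Markers of other cells also differed between these mTEC libraries, and their part in the sterol gene differences was not tested. The cTEC markers summed to 3510 CPM in knockout mTEC against 2893 in control mTEC, with 9 of 9 genes above 0, and the mTEC markers to 6789 against 6919 CPM. Thymocyte markers summed to 261 CPM in knockout mTEC and 215 in control mTEC, endothelial markers to 36.7 and 26.0, and myeloid markers to 366 and 328. Proliferation genes summed to 242 and 249 CPM, fibroblast markers to 179 and 174, B cell markers to 16.3 and 16.6, and the 4 markers of all thymic epithelium to 5194 and 4847. No gene of the 9 marker lists was at 0 in any library.

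**Figure D3:**
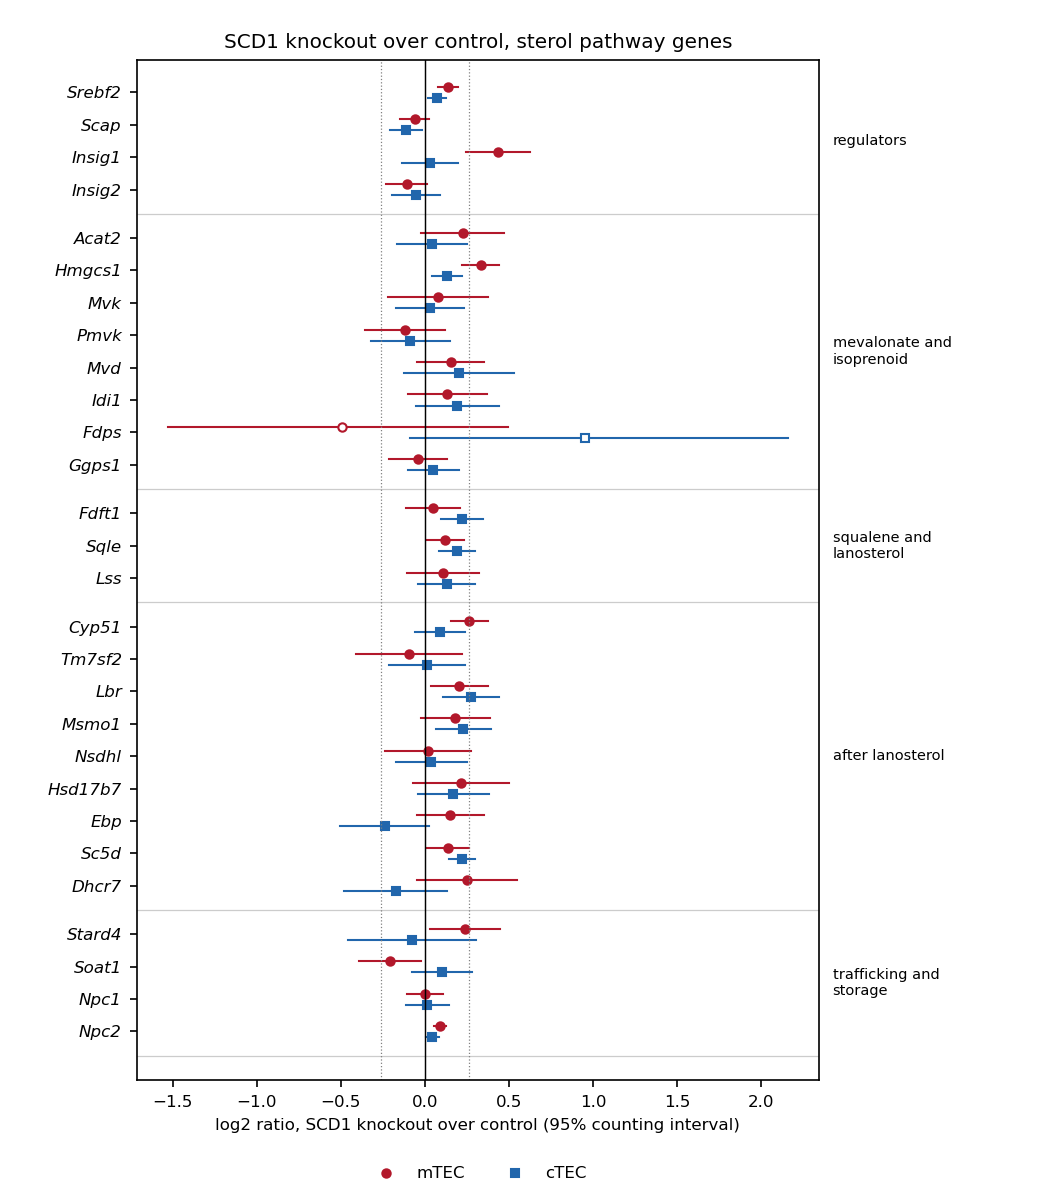
Log2 ratio of SCD1 knockout over control for each member in mTEC (circles) and cTEC (squares), with 95% counting intervals, and dotted lines at 1.2-fold. Open symbols mark Fdps, under the read minimum. Insig1, Hmgcs1 and Cyp51 lie farthest right in mTEC among measured genes, at 0.43, 0.33 and 0.26.

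In cTEC, the same comparison gave a median log2 ratio of 0.05 over the members, against 0.01 over the 14445 genes tested. Over the 19 measured synthesis enzymes alone the median was 0.14 in mTEC and 0.13 in cTEC. Again 21 of 27 members had a ratio above 0, against 52.3% of all genes, and 8 had an interval above 0, against 16.3%. Here too members had more reads (median 1209 over the pair, against 879 over all genes tested), which narrows their intervals. Only Lbr passed the 1.2-fold rule on the higher side (1 of 27, against 7.12% of all genes), none on the lower side (against 7.19%) and none at 2-fold (against 1.2%). Lbr had 702 reads in knockout cTEC and 507 in control cTEC, a log2 ratio of 0.27 (0.10 to 0.44), and with median-of-ratios scaling it was 0.262, below the rule.

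All 3 squalene and lanosterol genes had ratios above 0 in cTEC, as they had in mTEC. Fdft1, the squalene synthase, had 1229 reads in knockout cTEC and 919 in control cTEC (log2 ratio 0.22, 0.10 to 0.35), Sqle 1701 and 1300 (0.19, 0.09 to 0.30) and Lss, the lanosterol synthase, 655 and 522 (0.13, −0.04 to 0.30). Of the later enzymes, Sc5d had 3192 and 2393 reads (0.22, 0.14 to 0.29) and Msmo1, a methyl sterol oxidase, 716 and 533 (0.23, 0.06 to 0.39). Ebp, the sterol isomerase, lay the other way with 238 and 245 reads (−0.24, −0.50 to 0.02). These are differences of under 1.2-fold. The remaining later enzymes had intervals that included equality, with Hsd17b7 at 0.17, Nsdhl at 0.04, Tm7sf2 at 0.01 and Dhcr7 at −0.17. Of the trafficking and storage genes, Npc2 had 11062 reads in knockout cTEC and 9350 in control cTEC, with an interval just above 0 (0.04, 0.0049 to 0.08). Soat1 stood at 0.10 (−0.08 to 0.28), Npc1 at 0.01 (−0.11 to 0.14) and Stard4 at −0.08 (−0.46 to 0.31).

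Among the regulators and first enzymes in cTEC, Insig1 had 662 reads in knockout cTEC and 565 in control cTEC, a log2 ratio of 0.03 (−0.13 to 0.20). Hmgcs1 had 2213 and 1762 reads (0.13, 0.04 to 0.22), Srebf2 6589 and 5462 (0.07, 0.02 to 0.12), and Cyp51 817 and 670 (0.09, −0.06 to 0.24). Scap, with 1817 and 1712 reads, was the 1 member with an interval below 0 (−0.11, −0.21 to −0.02). The other members of these steps had intervals that included equality, from Pmvk at −0.09 to Mvd at 0.20. In the 2 cTEC libraries, cTEC markers summed to 20820 CPM in knockout cTEC against 16533 in control cTEC, mTEC markers to 2695 against 3046, and thymocyte markers to 391 against 303. Endothelial markers summed to 33.6 CPM in knockout cTEC and 22.4 in control cTEC, myeloid markers to 120 and 98.1, proliferation genes to 77.4 and 67.8, and their part was not tested. The fibroblast markers summed to 382 and 390 CPM, B cell markers to 4.73 and 4.12, and epithelial markers to 8097 and 7507.

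Set side by side, the genotype ratios in mTEC and cTEC, which share no library, were both above 0 for 18 of 27 members, against 29.1% of the 13953 genes tested in both. The labels used here do not state whether the mTEC and cTEC of a genotype came from the same mice. The mTEC and cTEC comparisons may therefore not be independent. The ratio was higher in mTEC than in cTEC for 12 of the 28 members, and Fdps was not among the 12. The share over all genes was not computed for this count, so nothing is read from it. Both intervals lay above 0 for 6 members, namely Srebf2, Hmgcs1, Sqle, Lbr, Sc5d and Npc2, against 3.36% of genes. This count also depends on depth, since members had more reads than all genes tested in both comparisons. Npc2 had its intervals above 0 at 1.07-fold in mTEC and 1.03-fold in cTEC. The ratio of Insig1 was higher in mTEC than in cTEC by 0.40 on the log2 scale (0.16 to 0.65), and that of Hmgcs1 by 0.20 (0.06 to 0.34). Ebp differed by 0.39 (0.07 to 0.71), Dhcr7 by 0.42 (0.01 to 0.84) and Soat1 by −0.31 (−0.56 to −0.05). The interval of Fdps also excluded 0 (−1.44, −2.80 to −0.08), on reads under the minimum. With 1 library per group these differences have no test beyond counting error. No member had intervals on opposite sides of 0 in the mTEC and cTEC comparisons, and the share of all genes that did was not computed.

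**Figure D4:**
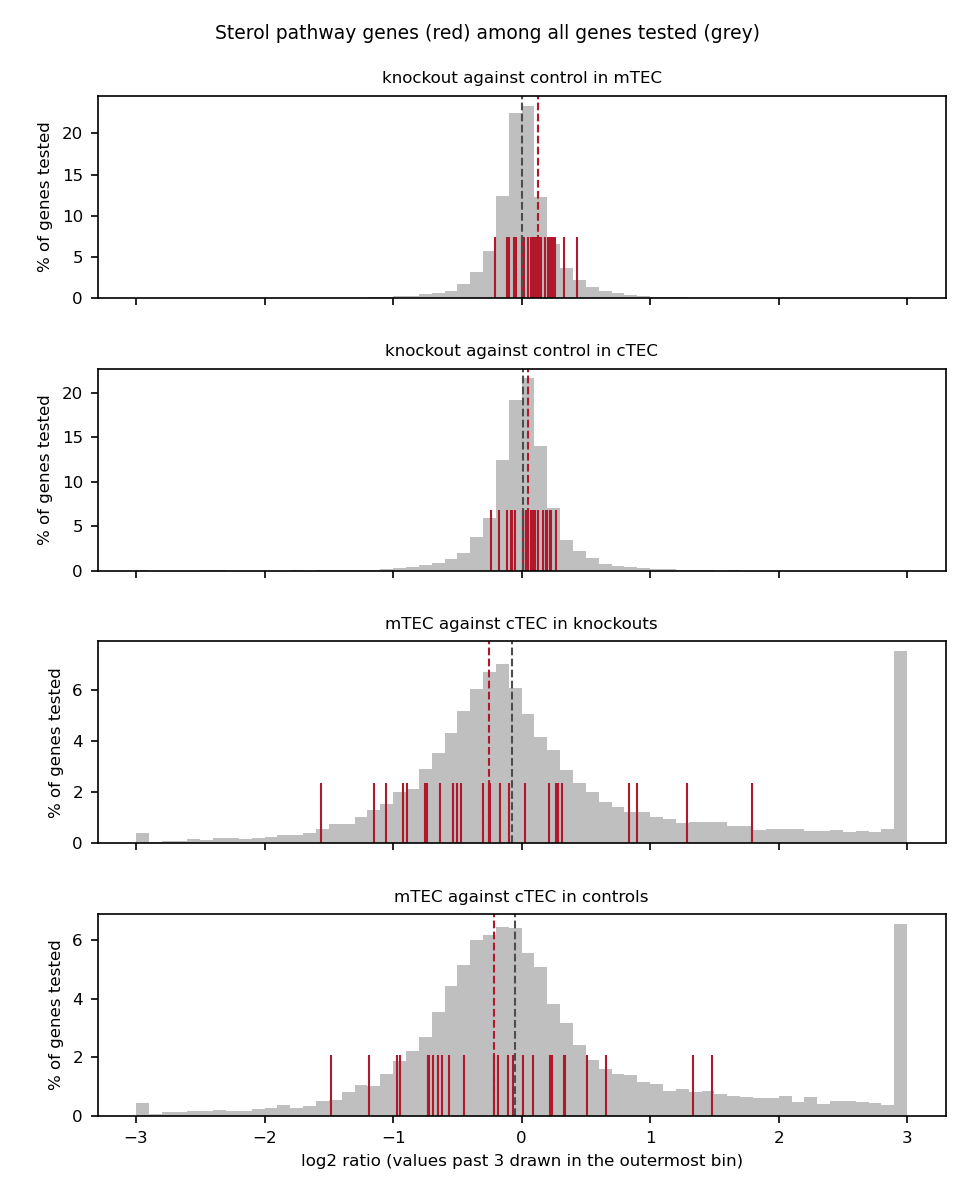
Log2 ratios of the 27 measured members (red lines) over the percentage of all genes tested per bin of ratio (grey), in the 4 comparisons, with dashed lines at each median. The members' median is 0.13 in mTEC and 0.05 in cTEC for knockout over control, and −0.26 in knockouts and −0.21 in controls for mTEC over cTEC.

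The comparison of mTEC with cTEC gave wider differences than the genotype, in both directions along the pathway, with members' log2 ratios from −1.56 to 1.79 in knockouts and from −1.48 to 1.48 in controls. Between genotypes they ran from −0.21 to 0.43 in mTEC and from −0.24 to 0.27 in cTEC. In knockouts, 13 of 27 members were at least 1.2-fold lower in mTEC (35% of the 15962 genes tested) and 8 at least 1.2-fold higher (31.6%), with 10 ratios above 0 (45.3%). In controls, 13 were lower (33.9% of 15747 genes) and 6 higher (31%), with 10 above 0 (46.5%). In both genotypes the share of lower calls was above that of all genes, and the shares of higher calls and of ratios above 0 were below it. With 27 genes, a few members make up each gap, and the gap for higher calls in knockouts was the smallest. These counts are therefore not read as a trait of the list. The median log2 ratio of the members was −0.26 in knockouts, against −0.08 over all genes tested, and −0.21 in controls, against −0.06. Over the 19 synthesis enzymes alone it was −0.53 in knockouts and −0.62 in controls, with 11 of 19 lower and 3 higher in each genotype. At 2-fold, 2 members were higher in knockouts (19.8% of genes) and 3 lower (8.96%), and in controls 2 were higher (19%) and 2 lower (8.53%).

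Calls of mTEC against cTEC were often shared by both genotypes, whose libraries are separate, among members and among all genes. At the 1.2-fold rule, 12 members were lower in mTEC in both genotypes, against 29% of the 15509 genes tested in both, and 6 were higher in both, against 27.2%. These counts, too, are not read as a trait of the list. The 12 were Srebf2, Acat2, Hmgcs1, Mvk, Ggps1, Fdft1, Lss, Tm7sf2, Msmo1, Nsdhl, Hsd17b7 and Sc5d. The 6 were Insig2, Mvd, Cyp51, Ebp, Stard4 and Npc1. Each of these comparisons shares a library with each genotype comparison.

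Sc5d had the lowest ratio and Stard4 the highest. Sc5d (ENSMUSG00000032018, mm10 chromosome 9, 42251595 to 42264256, minus strand) had 61.5 CPM in knockout mTEC against 182 in knockout cTEC, and at 56.0 CPM in control mTEC against 157 in control cTEC. Its log2 ratio was −1.56 (−1.67 to −1.47) in knockouts and −1.48 (−1.59 to −1.37) in controls, 2.96-fold and 2.80-fold lower in mTEC. Stard4 had 428 reads in knockout mTEC against 123 in knockout cTEC and 352 in control mTEC against 113 in control cTEC. It was 3.46-fold (log2 ratio 1.79, 1.5 to 2.10) and 2.79-fold (1.48, 1.17 to 1.80) higher in mTEC. For both genes the counting intervals of CPM in mTEC and cTEC did not overlap in either genotype, with 1 library each.

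Enzymes of the mevalonate segment differed in opposite directions, with Mvk lower and Mvd higher in mTEC. Mvk (ENSMUSG00000041939, mm10 chromosome 5, 114444269 to 114460591, plus strand), which adds the first phosphate to mevalonate, had 200 reads in knockout mTEC against 442 in knockout cTEC and 184 in control mTEC against 377 in control cTEC. It was 2.21-fold lower in knockout mTEC (−1.15, −1.40 to −0.90) and 2.28-fold lower in control mTEC (−1.19, −1.45 to −0.93). Pmvk, which adds the second, had 290 against 309 and 305 against 286 reads, with intervals of −0.33 to 0.14 in knockouts and −0.30 to 0.17 in controls. Mvd (ENSMUSG00000006517, mm10 chromosome 8, 122433601 to 122443422, minus strand), the next enzyme, had 445 reads in knockout mTEC against 182 in knockout cTEC and 388 in control mTEC against 138 in control cTEC, 2.44-fold (1.28, 1.03 to 1.54) and 2.52-fold (1.33, 1.05 to 1.63) higher in mTEC. Idi1 showed no difference larger than counting error, with intervals of −0.20 to 0.26 in knockouts and −0.16 to 0.34 in controls. Hmgcs1 was lower in mTEC by log2 ratios of −0.53 (−0.63 to −0.44) in knockouts and −0.73 (−0.84 to −0.62) in controls.

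The 3 genes from squalene to lanosterol were all lower in mTEC. Fdft1 stood at −0.89 (−1.03 to −0.76) in knockouts and −0.72 (−0.87 to −0.57) in controls on the log2 scale, and Lss at −0.75 (−0.94 to −0.57) and −0.73 (−0.93 to −0.53). Sqle stood at −0.26 (−0.36 to −0.15) and −0.19 (−0.30 to −0.07), less than 1.2-fold. Fdft1 overlaps Ctsb on the opposite strand, and since no strand setting is given, reads of such partners cannot be told apart. Ctsb had 4456 reads in knockout mTEC, 4412 in control mTEC, 4104 in knockout cTEC and 3617 in control cTEC. The same limit holds for Ggps1, which overlaps Arid4b on the opposite strand (927 to 1200 reads per library). It also holds for Npc1 with Rmc1 (473 to 750 reads) and Lbr with Dnah14 (23 to 124 reads).

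After lanosterol, the order of the pathway again mixed directions. Cyp51, the first step, was higher in mTEC, with 1458 reads in knockout mTEC against 817 in knockout cTEC and 1178 in control mTEC against 670 in control cTEC (log2 ratios 0.83, 0.71 to 0.96, and 0.66, 0.52 to 0.80). Ebp was higher as well, by 0.90 (0.67 to 1.14) and 0.51 (0.28 to 0.75). The C14 sterol reductase gene Tm7sf2 was lower by −1.05 (−1.33 to −0.78) in knockouts and −0.95 (−1.23 to −0.67) in controls, while Lbr, with the same activity, stood at −0.17 (−0.33 to −0.01) and −0.10 (−0.28 to 0.07). Msmo1, Nsdhl and Hsd17b7, which remove the C4 methyl groups, stood at −0.74, −0.64 and −0.93 in knockouts and at −0.69, −0.62 and −0.97 in controls. Tm7sf2 overlaps Vps51 on the same strand, a gene with 65 to 88 reads per library. It also overlaps the protein-coding gene Gm28374 on the same strand, with 0 reads in each library. Cyp51 overlaps Akap9 on the opposite strand, with 1502 to 1705 reads. Dhcr7 had intervals including equality in both genotypes, at 0.21 (−0.08 to 0.50) in knockouts and −0.21 (−0.53 to 0.10) in controls.

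The regulators split between the populations. Srebf2 stood at 265 CPM in knockout mTEC against 376 in knockout cTEC, and at 241 CPM in control mTEC against 357 in control cTEC, a log2 ratio of −0.50 (−0.56 to −0.45) in knockouts and one of −0.57 (−0.63 to −0.51) in controls. Scap, in contrast, was higher in mTEC by 0.29 (0.20 to 0.38) in knockouts and 0.24 (0.14 to 0.33) in controls, and Insig2 by 0.28 (0.15 to 0.41) and 0.34 (0.20 to 0.47). Insig1 stood at −0.24 (−0.41 to −0.08) in knockouts and −0.65 (−0.84 to −0.46) in controls. Its 3 libraries other than control mTEC lay between 31.9 and 37.8 CPM, and control mTEC at 23.6 CPM was the low value.

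Among the trafficking genes, Npc1 and Npc2 had intervals above 0 in both genotypes. Npc1 stood at 0.31 (0.20 to 0.43) in knockouts and 0.33 (0.21 to 0.45) in controls, and Npc2 at 0.27 (0.23 to 0.31) and 0.22 (0.18 to 0.26). Soat1 stood at −0.30 (−0.48 to −0.12) in knockouts and 0.0081 (−0.18 to 0.19) in controls. Proliferation genes summed to 242 CPM in knockout mTEC against 77.4 in knockout cTEC, and to 249 CPM in control mTEC against 67.8 in control cTEC. Myeloid markers summed to 366 CPM in knockout mTEC against 120 in knockout cTEC, and to 328 CPM in control mTEC against 98.1 in control cTEC. Thymocyte markers summed to 261 against 391 CPM in knockouts and to 215 against 303 CPM in controls, mTEC against cTEC. The part of these lists in the sterol gene differences was not tested.

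**Figure D5:**
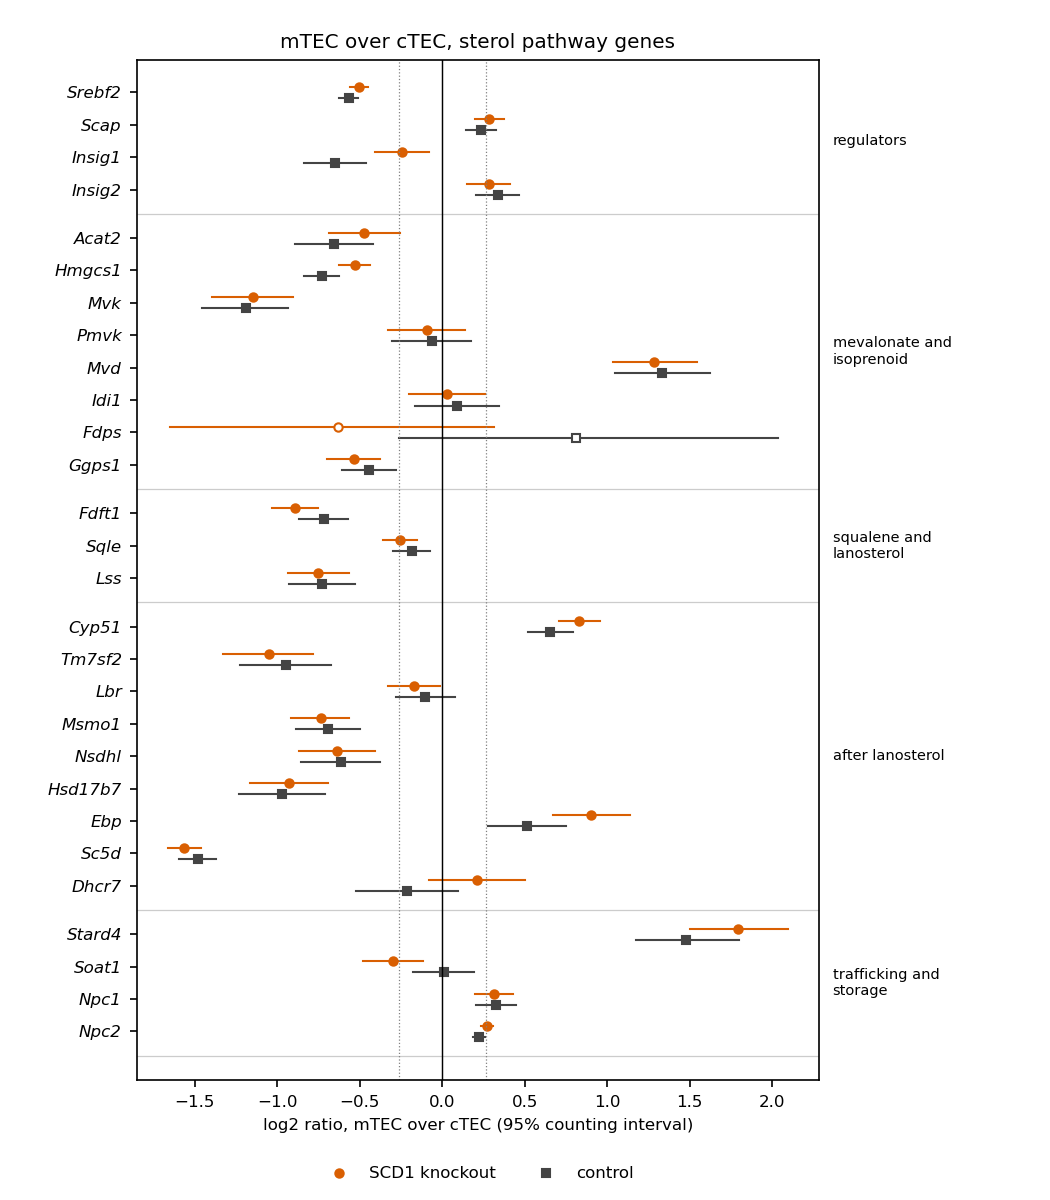
Log2 ratio of mTEC over cTEC for each member in SCD1 knockouts (circles) and controls (squares), with 95% counting intervals, and dotted lines at 1.2-fold. Open symbols mark Fdps, under the read minimum. Stard4 and Mvd lie at the right in both genotypes, and Sc5d and Mvk at the left.

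A further 39 genes of the pathway were taken from 4 groups: SREBP processing and sterol-regulated degradation, acetyl-CoA supply and isoprenoid branches, sterol uptake and transport, and oxysterol enzymes. Over the knockout and control libraries, the median log2 ratio of these 39 was 0.0072 in mTEC and −0.02 in cTEC. In mTEC, 2 of 39 were at least 1.2-fold higher in the knockout, against 5.9% of all genes, and 1 of 39 lower, against 4.29%. Srebf1, which encodes the SREBP1 factor of fatty acid synthesis, had 3022 reads in knockout mTEC and 2442 in control mTEC (0.26, 0.19 to 0.34). At 1.2003-fold it lay at the threshold of the rule. Scarb1, the high-density lipoprotein receptor, had 157 and 113 reads (0.43, 0.07 to 0.79). Nceh1, a cholesteryl ester hydrolase, had 335 and 393 reads (−0.27, −0.49 to −0.06).

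In cTEC, 2 of the 39 were at least 1.2-fold higher in the knockout, against 7.12% of all genes, and 2 lower, against 7.19%, so neither count exceeds that of all genes. Lipa, which frees cholesterol from esters in the lysosome, had 538 reads in knockout cTEC and 343 in control cTEC (0.45, 0.25 to 0.65). Gramd1b, which carries cholesterol from the plasma membrane to the endoplasmic reticulum, had 1445 and 966 reads (0.38, 0.26 to 0.50). Ch25h, whose product 25-hydroxycholesterol blocks SREBP processing, had 898 and 1104 reads (−0.50, −0.62 to −0.37). In mTEC, Ch25h had 1727 reads in the knockout library and 1784 in the control (−0.09, −0.19 to 0.01). Cyp46a1 had 22 reads in knockout cTEC and 34 in control cTEC (−0.81, −1.67 to −0.01).

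Between mTEC and cTEC, 17 of the 39 were at least 1.2-fold lower in knockouts, against 35% of all genes, and 6 higher, against 31.6%. In controls 15 were lower, against 33.9%, and 5 higher, against 31%. Soat2, the cholesterol esterification enzyme known from intestine and liver, was 6.87-fold higher in mTEC of knockouts (499 against 72 reads) and 4.77-fold higher in mTEC of controls (438 against 82 reads). Gramd1b was 2.64-fold and 3.16-fold higher in mTEC, and Ch25h 1.92-fold and 1.45-fold, knockouts first and controls second. Scarb1 was higher in mTEC of knockouts, with 157 against 78 reads (log2 interval 0.61 to 1.42), and of controls, with 113 against 67 reads (0.15 to 1.06). Acss2, an acetyl-CoA synthetase, was higher by 0.58 (0.35 to 0.83) in knockouts and 0.56 (0.31 to 0.81) in controls. On the lower side, Srebf1 was 3.10-fold and 3.24-fold lower in mTEC, knockouts first and controls second. Cyp27a1 stood at −0.92 (−1.15 to −0.69) and −0.88 (−1.12 to −0.65), and Scarb2 at −0.64 (−0.71 to −0.57) and −0.80 (−0.87 to −0.72), in the same order. Lipa stood at −0.62 (−0.82 to −0.43) in knockouts and −0.19 (−0.41 to 0.03) in controls.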

How the data were processed

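The deposited values are unnormalized counts of reads, made by the authors with HISAT2 2.0.5, featureCounts 1.5.0-p3 and CASAVA against mm10, per the submitters' processing notes. No label states the strand setting, the annotation release or how multi-mapped reads were treated. The deposited gene length (other unit, in bases, per the file headers) was used for TPM alone. No row lacked a gene name. Counts were scaled with TMM in edgeR 4.0.16 (R 4.3.3), with DESeq2 1.42.0 size factors and library totals as alternatives; intervals were computed with scipy 1.17.1, tables with pandas 2.3.3 and numpy 2.4.6 under Python 3.11.15. Log2 ratios used a prior count of 0.5 reads. Their intervals are exact conditional binomial (Clopper-Pearson) and those of CPM exact Poisson, at 95%, and the interval of a difference of ratios is from Poisson variances. A gene was tested with at least 50 reads over the pair, and called at 1.2-fold or 2-fold with an interval excluding equality. Library totals of 15740383 to 18151725 reads put a floor of 3 counts at 0.171 to 0.196 CPM. Since PCR copies of a molecule can be counted more than once, the intervals and this floor describe counting error alone. Ratios were checked on simulated data.

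No p-value was computed, since each group has 1 library. All 28 members are named, with Scd1 and, of the other pathway genes, up to 4 per direction and comparison past the 1.2-fold rule with the interval bound farthest from 0, of which 1 is not reported here. The members and lists were chosen with earlier results of these data known. Shared 50-base windows were found in GENCODE M21 transcripts, leaving out genes that overlap the member in the genome. Promoters are from RefSeq, GRCm38.p6.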

Additional observations from a re-analysis of the deposited data

How the results depend on the processing

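Alternatives were median-of-ratios scaling, library totals, no read minimum, a minimum of 200 reads, a prior count of 2 reads and the synthesis enzymes alone, and, added after the data were seen, the list without members whose transcripts share at least 20% of their windows with other genes. Of 112 summary values recomputed, 104 stayed close to the original (counts within 1.5 times, medians within counting error). Only a median could change sign, and no median did. The number of members 1.2-fold higher in knockout mTEC was 3, and 2 with library totals, where Cyp51 dropped out. With median-of-ratios scaling the number of members 1.2-fold higher in knockout cTEC was 0. Library totals moved the median log2 ratio of mTEC over cTEC to −0.16 in knockouts and −0.12 in controls. The median over all genes tested moved as well, from −0.08 to 0.02 in knockouts and from −0.06 to 0.04 in controls. With the synthesis enzymes alone, the median for knockout over control was 0.14 in mTEC and 0.13 in cTEC, against 0.13 and 0.05 over all members, and it was −0.53 for mTEC over cTEC in knockouts and −0.62 in controls, and 3 members were 1.2-fold higher in mTEC in each genotype, where fewer genes enter by construction. Single members, compared 544 times, passed below or above the 1.2-fold rule with library totals 2 and 3 times and below it once with median-of-ratios scaling, and 4 more moved outside their counting intervals with library totals. No paired analysis was possible because each group has 1 library, and for the same reason no library could be left out. Depth limits Fdps (11 to 25 reads), whose level cannot be compared between libraries.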
